A study of Mus musculus with 4 samples.

Results

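The proteins of the cytosolic ribosome were followed at the level of their mRNAs in mouse gastrocnemius muscle. Rows were taken by gene symbol, namely every symbol made of Rpl or Rps, a number and at most a short suffix, without the Rps6k kinases, together with Rplp0, Rplp1, Rplp2 and Rpsa. This rule used no measured value and found 88 of 23282 gene rows. They comprised 31 proteins of the small (40S) subunit, 44 of the large (60S) subunit, 3 proteins of the ribosomal stalk and 9 variant paralogs. The remaining row was Rps19bp1, which encodes a binding partner of the 40S protein Rps19 and is not a ribosomal protein. The 78 rows of the 40S, the 60S and the stalk are called ribosomal protein rows below, and the variants are described apart. Rpl37rt, a retrogene copy of Rpl37, was counted with the 60S rows, and Rps27rt, a retrogene copy of Rps27, with the variants. All 88 symbols were found in the RefSeq annotation of GRCm38.p6, on 19 chromosomes.

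Gene expression was measured by QuantSeq, which sequences the 3′ ends of polyadenylated transcripts, in 4 libraries of CDF1 mice. Normal control [E(−)T(−)] had neither exercise nor a tumor, normal exercise [E(+)T(−)] had high-intensity treadmill running, cancer control [E(−)T(+)] had the tumor, and cancer exercise [E(+)T(+)] had both. Where 4 values of a gene follow each other without names, they stand in this order. The tumor came from CT26 murine colorectal cancer cells given through the tail vein, so cancer cells were spread by the blood and were not grown at 1 chosen site. The mice were male according to the methods, and the labels give postnatal day 28, which is the age at purchase in the methods. The methods state that tissue was taken at the end of the experiment, so the mice were then older than the labels give. The series' design text names 10 mice per group while the results of the study describe a representative mouse, so the sources do not settle if each library stands for 1 animal or for a pool. Each group had 1 library, and no difference given here has a replicate check or a p-value.

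A ribosome reads an mRNA and joins amino acids into protein. Its small subunit holds the mRNA and checks the codons, its large subunit forms the peptide bonds, and the stalk on the large subunit recruits the elongation factors. Most ribosomal protein mRNAs of mammals begin with a C followed by a run of pyrimidines, the 5′ terminal oligopyrimidine (TOP) tract, through which the mTORC1 kinase and Larp1 set their translation together. In striated muscle the 60S protein Rpl3 is largely replaced by the muscle paralog Rpl3l.

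The start of the transcript is shown for 11 members, because the TOP tract is the feature most of these mRNAs are known to share. All common proteins shown have a marked run, although most annotated starts of ribosomal protein rows have none. Windows without a run, such as those of Rpl10a, Rpl22, Rpl23, Rpl26, Rplp0, Rps19 and Rps28, are not printed. The windows shown therefore do not compare the variants with the common proteins. Each window runs from 10 bases before to 19 bases after the annotated first base, on the strand of the gene, 5′ to 3′, from RefSeq GRCm38.p6. Capitals mark a run of at least 5 pyrimidines that opens with C within 5 bases of the annotated start. For Rplp2 they mark only the part from the annotated first base, a C, because the whole run opens with T further upstream.
Rps27 (chr3:90213629-90213658, minus strand): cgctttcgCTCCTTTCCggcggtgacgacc
Rps6 (chr4:86857348-86857377, minus strand): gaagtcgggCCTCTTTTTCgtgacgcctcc
Rpl13a (chr7:45128726-45128755, minus strand): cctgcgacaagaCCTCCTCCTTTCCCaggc
Rpl18 (chr7:45718061-45718090, plus strand): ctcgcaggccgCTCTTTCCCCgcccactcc
Rpl15 (chr14:18270967-18270996, minus strand): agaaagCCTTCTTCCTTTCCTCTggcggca
Rplp2 (chr7:141447641-141447670, plus strand): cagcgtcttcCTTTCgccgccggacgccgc
Rpl39 (chrX:37085203-37085232, minus strand): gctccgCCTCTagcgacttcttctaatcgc
Rpl39l (chr16:10170218-10170247, plus strand): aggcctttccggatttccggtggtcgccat
Rps27l (chr9:66946076-66946105, plus strand): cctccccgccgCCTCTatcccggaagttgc
Rpl7l1 (chr17:46782637-46782666, minus strand): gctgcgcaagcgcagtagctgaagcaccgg
Rpl3l (chr17:24727816-24727845, plus strand): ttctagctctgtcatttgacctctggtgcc

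RefSeq promoters were matched for 67 of the 88 members, with 79 annotated starts. The search looked, on the strand of the gene alone, for C followed by C or T letters to a run of at least 5. Starts were counted whose annotated first base was a C beginning a stretch of at least 5 such letters, with or without pyrimidines before it. These were 13 of the 68 starts of ribosomal protein rows (19.1%) and 2.51% of all 32851 starts. Such a stretch, or a run opening with C within 5 bases of the start, was present in 22 of the 68 (32.4%). It was present in 13.4% of all starts and in 16% of the 75 starts of mitochondrial ribosomal proteins. Of the mitochondrial starts, 0 had such a stretch on the first base. A match of these letters is a description of the window and is not a measured TOP tract, since annotated starts can lie some bases from the start in use. Among the 10 starts of variant paralogs, 2 (20%) were counted by the wider search. Of the shown variants, Rpl3l, Rpl39l and Rpl7l1 had no run that opens within 5 bases of the start, and Rps27l had a short one. The window of Rpl39l holds a run that opens further upstream and ends just before the start.

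The 88 member rows together took 3.449% of the reads in normal control (95% counting interval 3.439 to 3.46), 4.187% with exercise alone (4.176 to 4.198), 6.45% with the tumor alone (6.436 to 6.465) and 5.187% with both (5.174 to 5.2). The intervals here and below are Clopper-Pearson intervals and cover counting error only, not the difference between animals. The share in cancer control was 1.87 times that in normal control, and the share in cancer exercise was 1.24 times that in normal exercise. Exercise went with a share 1.21 times as large without a tumor and 0.804 times as large with one. The 4 intervals do not overlap, so the shares, lowest in normal control and then rising through normal exercise and cancer exercise to cancer control, differed by more than counting error. The 60S and stalk rows took 2.01, 2.44, 3.83 and 3.04% and the 40S rows 1.26, 1.54, 2.37 and 1.93% in the order above.

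These shares have a common denominator with the most abundant transcripts of muscle. The 10 most abundant rows of each library, none of them a member, took 23.63% of the reads in normal control, 20.43% with exercise alone, 13.55% with the tumor alone and 16.41% with both. With those rows left out, the members took 4.517, 5.262, 7.461 and 6.206% in the same order of libraries, which is the same ranking with a smaller ratio between its ends. Rn45s, the precursor of ribosomal RNA and a transcript without a regular poly(A) tail, was the most abundant row of both libraries without a tumor. It took 4.25% of the reads in normal control, 3.65% with exercise alone, 1.54% with the tumor alone and 2.07% with both. Its share was thus lowest where the share of ribosomal protein mRNAs was highest, and what part this row has in the shares was not tested beyond leaving out the 10 rows.

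**Figure D1:**
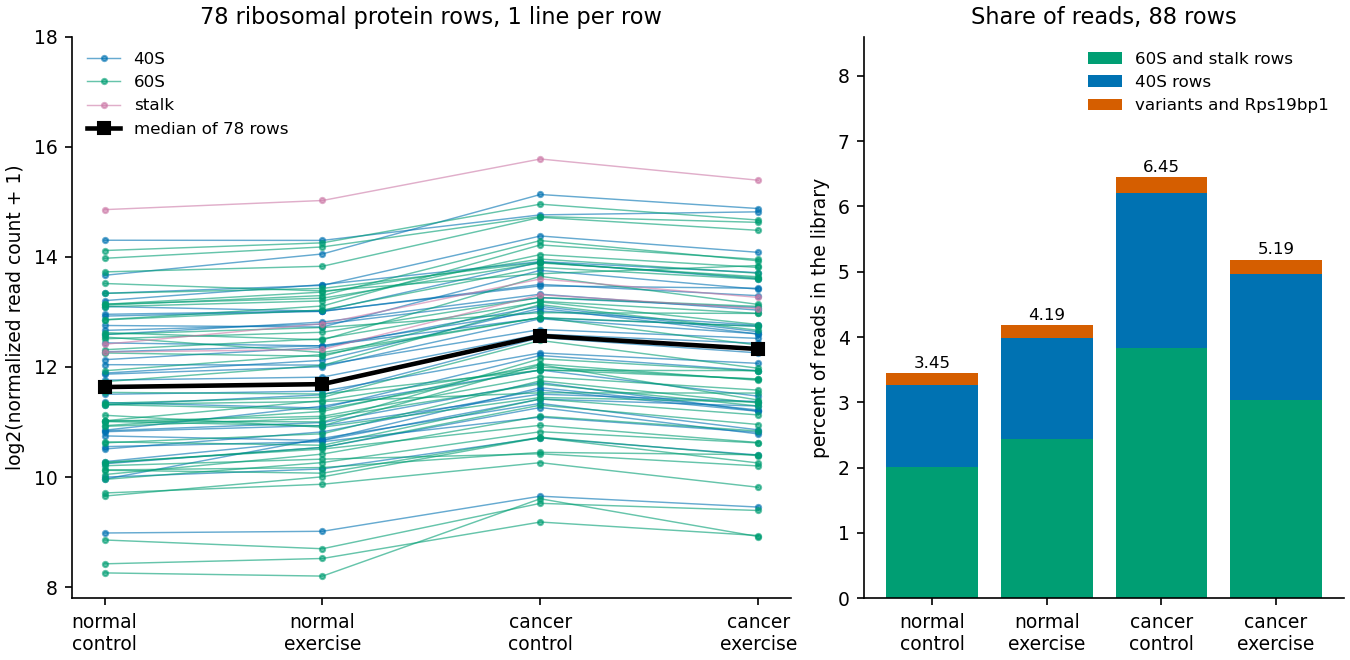
Left, the level of each of the 78 ribosomal protein rows as log2(normalized read count + 1) in the 4 libraries, with 1 line per row and the median in black; right, the percent of reads in the 88 member rows, stacked by subunit. The lines run nearly parallel, with the median count going from 3189 in normal control to 6062 in cancer control, and the total bar from 3.45 to 6.45%.

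Within a library the ribosomal protein rows spanned a wide range. Counts are not divided by transcript length, because QuantSeq gives about 1 read per transcript whatever its length, although 3′ ends may be captured unequally. The lowest, median and highest normalized read counts were 305, 3189 and 29716 in normal control, and 293, 3312 and 33340 in normal exercise. They were 580, 6062 and 56227 in cancer control, and 483, 5141 and 43027 in cancer exercise. The highest was the stalk protein Rplp1 in each library, and the lowest was Rpl3 in all but cancer control, where it was Rpl21. The ratio of highest to lowest lay between 89.1 and 114.0, although ribosomes hold most of these proteins in equal number. Reads were present for 87 of the 88 members in at least 1 library. Rpl10l, a testis retrogene paralog of Rpl10, had 0 reads in all 4, which allows a share of up to 2.27e-05 to 2.82e-05% of the reads.

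The largest differences went with the tumor. Between cancer control and normal control, 82 of the 87 member rows with reads were higher and 5 lower in cancer control, and all 78 ribosomal protein rows were higher. The median difference of the 87 rows was 0.82 on the log2 scale, a 1.77-fold higher count, while the median of all 14818 rows compared was -0.04. Over the 5222 rows with a mean count of at least 256, a level closer to that of the members, the median was 0.09. The 78 ribosomal protein rows had a median of 0.85 and lay between 0.18 and 1.47. Their interquartile range of 0.375 was narrow beside the 1.768 of all rows and the 1.303 of the rows with a mean count of at least 256.

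A row was called when it differed at least 2-fold and reached a normalized read count of 4 in 1 of the libraries compared. By this rule 28 of the 87 members were higher in cancer control, beside 20.9% of all rows, and 2 were lower, beside 24.2% of all rows. The share of members called higher was 32.2%, and among the 5222 rows of high level it was 17.6%. Most of the members lay under the 2-fold line, and at 1.5-fold 66 were higher and 3 lower, beside 30.6 and 33.7% of all rows. Close to the 2-fold line lay Rps16 on the inside, at 1.007, and Rpl37rt and Rpl24 on the outside, at 0.991 and 0.976. The 28 called rows comprised 11 of the 40S, 13 of the 60S, 2 of the stalk and the variants Rpl39l and Rps27rt. The 40S and 60S rows differed little, with medians of 0.84 and 0.87.

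**Figure D2:**
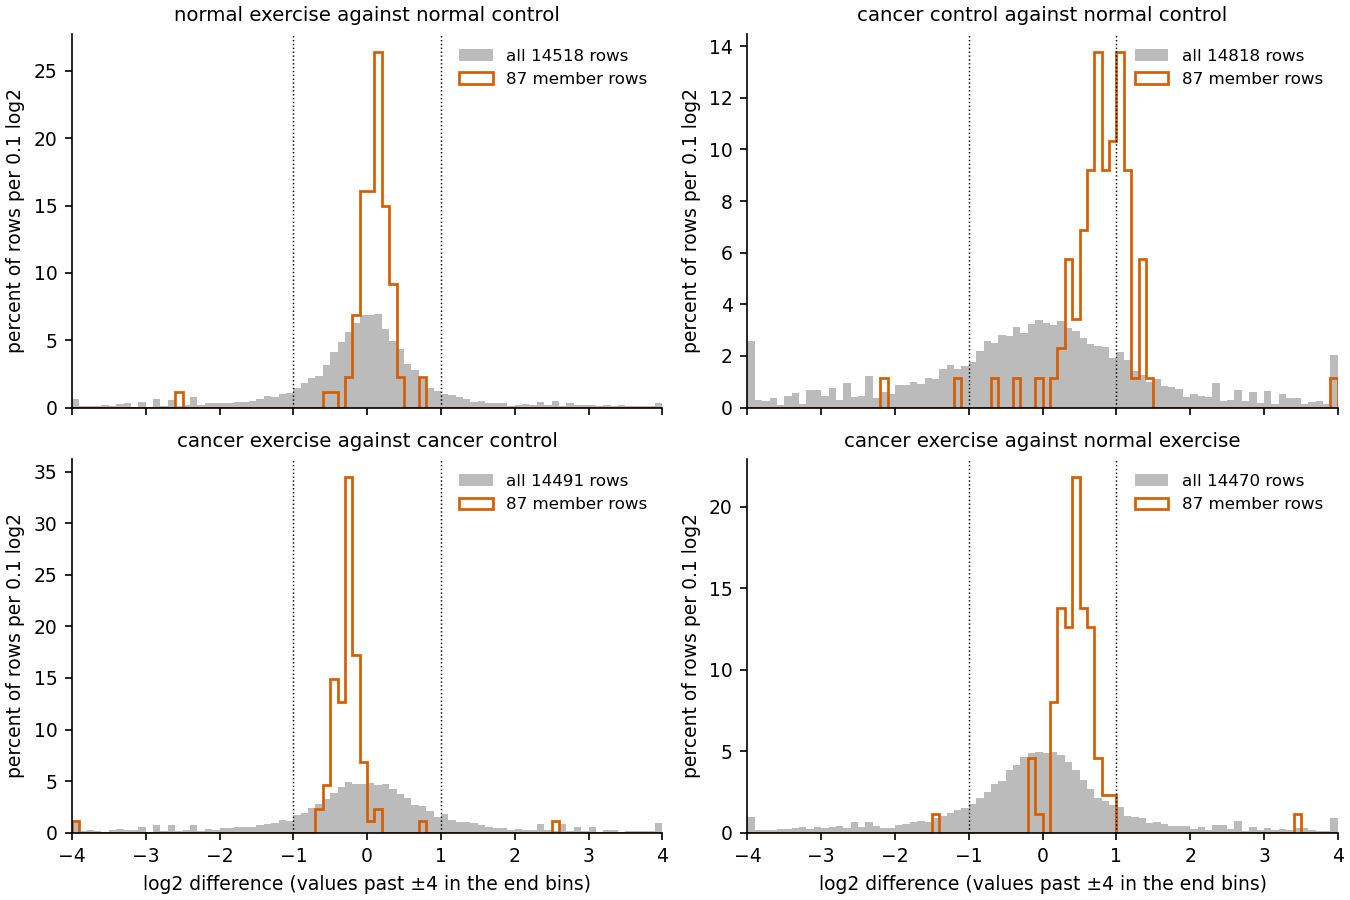
Percent of rows by log2 difference in bins of 0.1, for all rows that met the minimum (grey) and for the 87 member rows (orange line), in each of the 4 comparisons; dotted lines mark 2-fold. The members form a narrow peak, which lies to the right of zero for cancer control against normal control (median 0.82) and for cancer exercise against normal exercise (0.44), and slightly to the left for cancer exercise against cancer control (-0.26).

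The stalk proteins, which bring elongation factors to the ribosome, were all higher in cancer control. Rplp0, the base of the stalk, had counts of 4941 in normal control, 5109 with exercise alone, 10169 with the tumor alone and 8545 with both. Rplp1, its acidic partner and the most abundant member, had 29716, 33340, 56227 and 43027 in the same order, and Rplp2, the other acidic protein, had 5453, 7076, 12416 and 9836. For each of the 3, cancer control was highest and cancer exercise came next. Their log2 differences between cancer control and normal control were 1.04, 0.92 and 1.19.

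Among the 40S rows, Rps20, a protein of the head of the subunit, differed most. Its counts were 12997 in normal control, 17008 with exercise alone, 35956 with the tumor alone and 30131 with both, with a log2 difference of 1.47 (counting interval 1.44 to 1.5) between cancer control and normal control. Rps27 stood at 996, 1668, 2588 and 1855 in the same libraries, a difference of 1.38 (1.27 to 1.49). It was also the 40S row with the largest difference between normal exercise and normal control, at 0.74. Its reads may be split with the retrogene copy Rps27rt. Rps28, which lies where the mRNA leaves the subunit, had counts of 1242, 1628, 3153 and 2383 and a difference of 1.34. Rpsa, also known as a laminin receptor precursor, had 1832, 2034, 3365 and 2347 and a difference of 0.88, close to the median. Rps14, the 40S row with the highest mean count, though below Rps20 in both tumor libraries, was among the least different, with 20212, 20170, 27822 and 28903 and a difference of 0.46. Rps14 was also the only 40S row for which cancer exercise lay above cancer control. Rps9, a protein of the mRNA entry channel, had 10354, 11449, 21320 and 17353 and a difference of 1.04.

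Among the 60S rows, Rpl10a, which lies where tRNA leaves the ribosome, was highest in its difference. It had counts of 3403 in normal control, 4178 with exercise alone, 8982 with the tumor alone and 6498 with both, a difference of 1.40 (1.34 to 1.46) between cancer control and normal control. Rpl22, an RNA-binding protein that mice can live without, had 17755, 19564, 31827 and 26067 and a difference of 0.84. Rpl4, which lines part of the exit tunnel, had 16102, 18573, 27231 and 25319, a difference of 0.76, and Rpl23 had 8920, 10071, 20128 and 15607, a difference of 1.17. Rpl37rt had 13568, 14562, 26968 and 22898, and Rpl37 had 4887, 4685, 9377 and 8039. The ratio of Rpl37rt to Rpl37 lay between 2.78 and 3.11 in the 4 libraries. Because these transcripts are nearly identical and the handling of reads that match several genes is not given, the split between them is uncertain.

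The smallest differences were read off after the values were seen. Rpl26 had counts of 11722, 10667, 13261 and 14694, a difference of 0.18 (0.14 to 0.22) between cancer control and normal control. Rpl15 had 2556, 2651, 2958 and 2948, a difference of 0.21 (0.13 to 0.29), and Rpl35a had 1180, 1283, 1372 and 1177, a difference of 0.22 (0.10 to 0.33). The spread between Rpl26 and Rps20 exceeded the counting error, since the interval reached 0.067 to either side at the median of the 78 rows, and at most 0.20, for Rpl3. The difference did not follow the level. The lower, the middle and the upper 26 of the 78 rows by mean count had medians of 0.76, 0.95 and 0.83.

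Nor did it separate the rows by the run of pyrimidines. The 22 genes counted by the search of the starts had a median difference of 0.90 between cancer control and normal control. The 36 genes that it did not count had 0.85. Between cancer exercise and normal exercise the medians were 0.43 and 0.43. Rpl15, with the longest run among the shown windows, differed by 0.21, and Rps27, with a shorter run, by 1.38. Rpl10a, without a run at either of its annotated starts, differed by 1.40.

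The same contrast in exercised mice had a smaller median, and the difference between the contrasts was not tested. Between cancer exercise and normal exercise, 81 of 87 members were higher and 6 lower, with a median of 0.44 (1.36-fold) beside -0.03 over all 14470 rows and 0.07 over the rows of high level. By the 2-fold rule 1 member was higher, beside 13.9% of all rows, and 1 was lower, beside 16.3%. The higher one was Rpl39l and the lower one Rpl7l1. At 1.5-fold 22 members were higher, beside 22.9% of all rows, and 1 was lower, beside 26.2%. The 22 were 25.3% of the members, near the background, while the other counts lay below it. Among the 5222 rows of high level, 8.9% were higher and 5.59% lower at 2-fold. Total count scaling gave a member median of 0.28, with 78 rows higher and 9 lower, beside a median of -0.19 over all rows. The 40S and 60S medians were 0.44 and 0.46. Of the 78 ribosomal protein rows, 76 were higher, and the exceptions were Rpl35a and Rpl9, at -0.12 and -0.06. The largest among the 78 was Rpl10, which joins the 60S subunit last, at 0.92, and Rps20 was at 0.82.

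**Figure D3:**
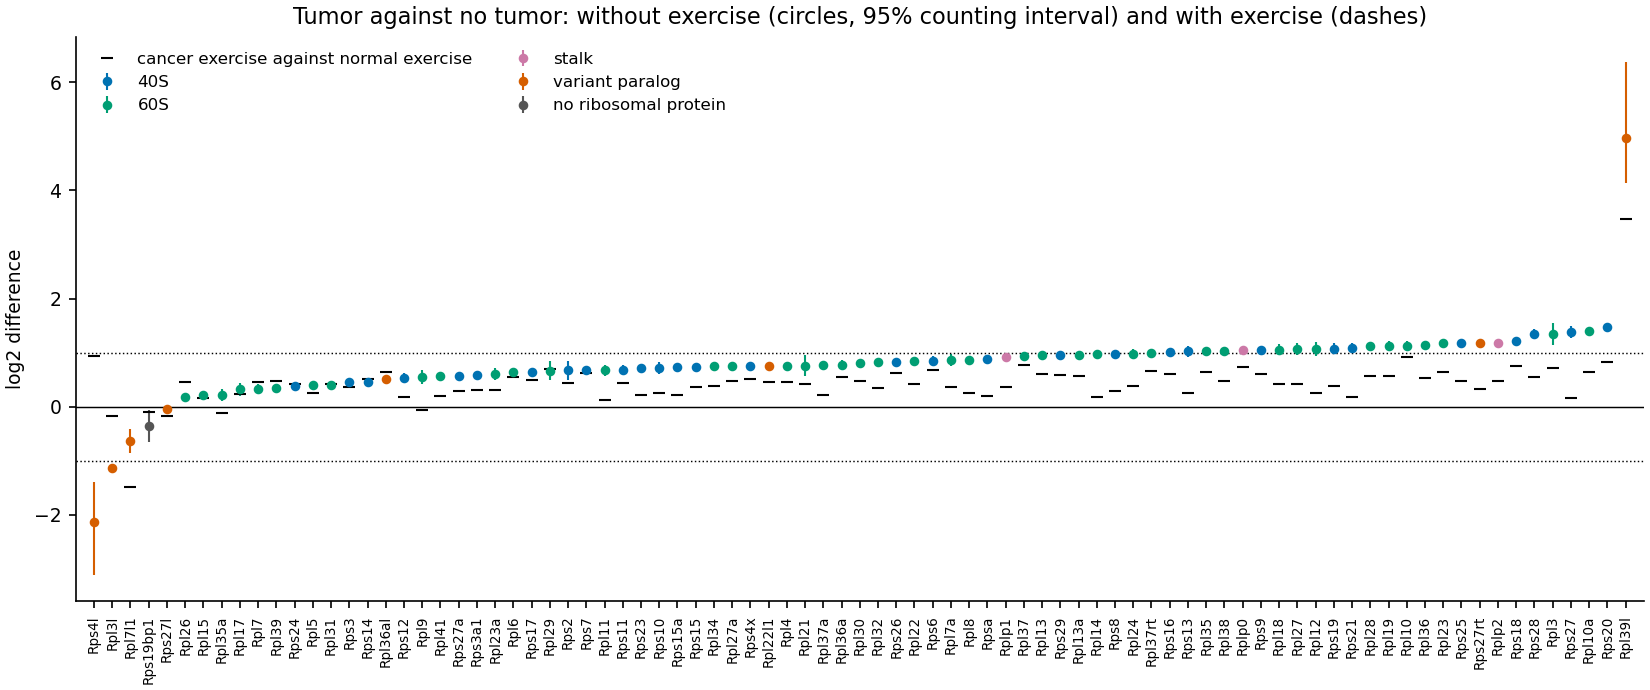
The log2 difference of each of 85 member rows with a tumor against without, sorted by the difference without exercise (circles, cancer control against normal control, bars 95% counting interval), with the same contrast in exercised mice as black dashes. All but 5 circles lie above 0, the widest bars belong to Rpl39l and Rps4l, and most dashes lie between 0 and the circle.

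Exercise in mice without a tumor went with little change in these rows. Between normal exercise and normal control the median of the 87 rows was 0.11 (1.08-fold), beside -0.01 over all 14518 rows, with 62 rows higher and 25 lower. By the 2-fold rule 0 members were higher, beside 9.44% of all rows, and 1 was lower, beside 12.1% of all rows. That row was Rpl39l, which went from 8 reads to 1. Among the 5221 rows of high level, 1.74% were higher and 2.3% lower. At 1.5-fold 2 were higher, beside 17.5%, and 1 was lower, beside 20.4%. The 2 were Rps27 and Rpl7l1, at 0.74 and 0.75. The 40S and 60S medians were 0.11 and 0.12. The median depends on scaling, because scaling by total count moves the median of all rows from -0.01 to 0.15 and that of the members to 0.27, with 81 members higher and 6 lower. The members stood above all rows under either scaling.

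Exercise in mice with a tumor went with slightly lower levels. Between cancer exercise and cancer control the median of the 87 rows was -0.26, or 0.836-fold, beside 0.01 over all 14491 rows, with 82 rows lower and 5 higher. Of the 78 ribosomal protein rows 76 were lower, and Rpl26 and Rps14 were higher, at 0.15 and 0.06. By the 2-fold rule 1 member was higher, beside 15.6% of all rows, and 1 was lower, beside 15.1%. These were the variants Rps4l and Rpl39l. Among the 5221 rows of high level, 6.21% were higher and 4.18% lower. At 1.5-fold 2 were higher, beside 25.2%, and 3 were lower, beside 24.3%. The rows that came nearest to being called lower were Rpl3 and Rpl38, at -0.69 and -0.64. The 40S and 60S medians were -0.28 and -0.26. The differences were thus small, mostly lower and seldom called.

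Set in order of level, 57 of the 87 members went from normal control through normal exercise and cancer exercise to cancer control. Another 20 had the first 2 of these exchanged. Cancer control was the highest library for 79 rows and cancer exercise the second for 77. In 80 rows both tumor libraries lay above both others, beside 26.7% of the 15485 rows with a count of at least 4 in any library. In 3 rows both lay below, beside 26.9%. The rows outside the 80 were Rpl3l, Rpl7l1, Rpl9, Rpl35a, Rps27l, Rps4l and Rps19bp1, of which Rpl9 and Rpl35a alone are common ribosomal proteins. Rps19bp1 had counts of 237, 173, 185 and 160.

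The muscle paralog moved against its common partner. Rpl3, at chr15:80077781-80083406 and a 60S protein that reaches toward the centre of peptide bond formation, had counts of 305 in normal control, 293 with exercise alone, 778 with the tumor alone and 483 with both. Rpl3l, at chr17:24727826-24736143, had 5080, 4541, 2308 and 4005. Rpl3 was thus highest and Rpl3l lowest in cancer control, and in both cases cancer exercise lay between cancer control and the libraries without a tumor. Rpl3 differed by 1.35 (1.15 to 1.55) on the log2 scale between cancer control and normal control, 2.54-fold higher, and Rpl3l by -1.14 (-1.21 to -1.06), 2.2-fold lower. Between cancer exercise and cancer control the differences were -0.69 (-0.86 to -0.52) for Rpl3 and 0.80 (0.72 to 0.87) for Rpl3l, neither of them called at 2-fold.

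The ratio of Rpl3l to Rpl3 is taken within a library and does not depend on scaling. It was 16.6 in normal control, 15.4 with exercise alone, 2.96 with the tumor alone and 8.28 with both. On the log2 scale these are 4.05 (3.88 to 4.23), 3.95 (3.80 to 4.11), 1.57 (1.45 to 1.69) and 3.05 (2.91 to 3.20). The libraries without a tumor overlapped in their counting intervals, and those with a tumor lay below them and apart from each other. Rpl3l made up 94.3, 93.9, 74.8 and 89.2% of the reads of both genes, so it stayed the more abundant of the pair in each library. Among the 9 variants Rpl3l and Rps4l alone were called lower in cancer control.

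**Figure D4:**
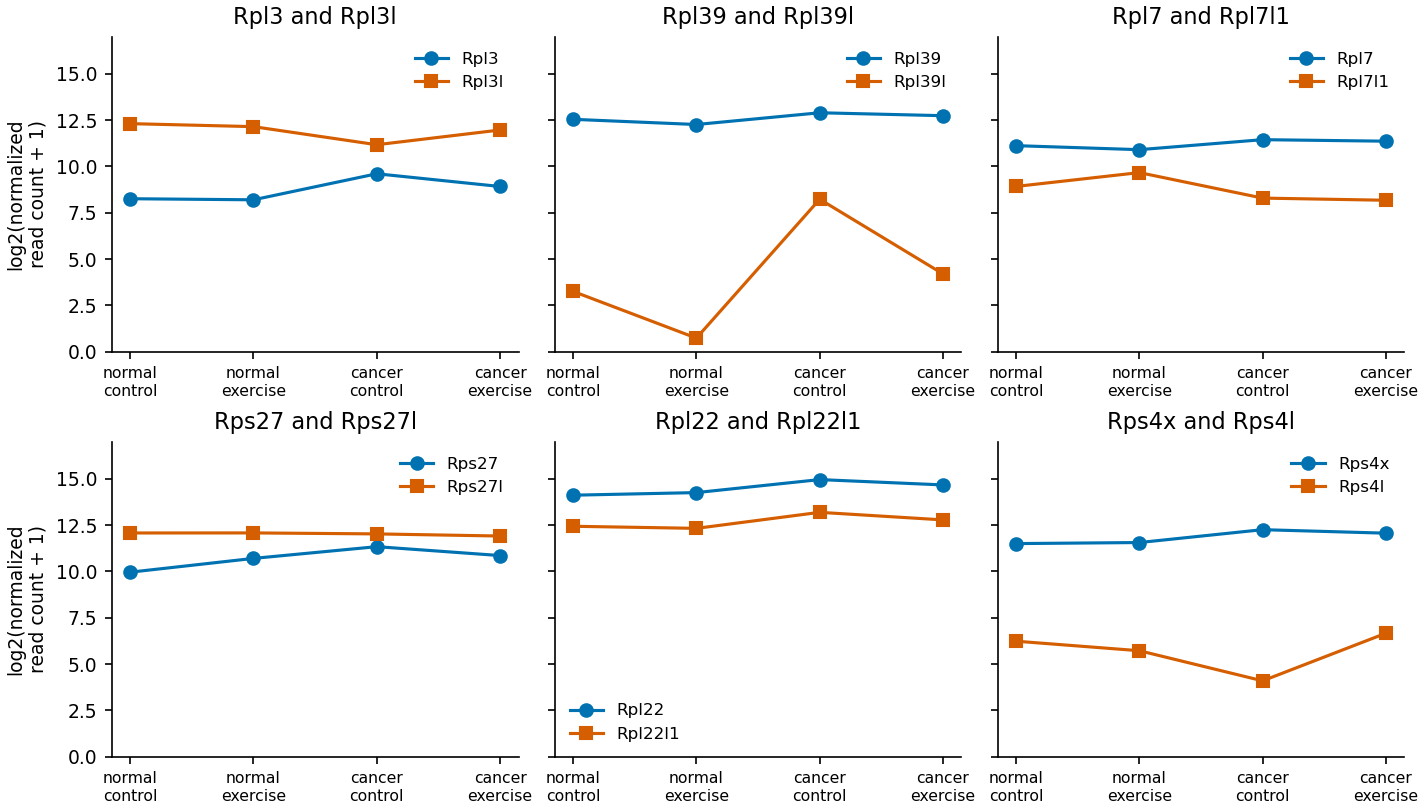
The level of a common ribosomal protein (blue circles) and of its variant paralog (orange squares) as log2(normalized read count + 1) in the 4 libraries, for 6 pairs, without error bars because each group had 1 library. Rpl3l and Rpl3 approach each other in cancer control, Rpl39l goes from 1 read in normal exercise to 280 in cancer control, and Rps4l is lowest in cancer control.

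The other variants did not move as a set. Rpl39l, a paralog of Rpl39 best known from testis, at chr16:10170197-10174911, had 8 reads in normal control, 1 with exercise alone, 280 with the tumor alone and 16 with both. It was high in cancer control alone, with a log2 difference of 4.97 (4.14 to 6.37) against normal control and of -4.03 (-4.94 to -3.39) for cancer exercise against cancer control. Against normal exercise, cancer exercise differed by 3.46, with an interval from 1.73 to 9.81 because of the 1 read. Rpl39 itself had counts of 5971, 4917, 7632 and 6840, so Rpl39l was at most 3.78% of the reads of both genes.

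Rps4l, which RefSeq lists as a transcribed pseudogene related to Rps4x, at chr6:148354656-148355596, had 70, 64, 15 and 93 reads. It was low in cancer control alone, with differences of -2.14 (-3.12 to -1.39) against normal control and 2.57 (1.85 to 3.54) for cancer exercise against cancer control. Rps4x, the protein it resembles, had counts of 2903, 3020, 4887 and 4287. Rpl7l1, an Rpl7-like protein, at chr17:46773907-46782656, had counts of 484, 813, 313 and 288. It was highest in normal exercise and lower in both tumor libraries, with differences of -0.63 (-0.85 to -0.41) between cancer control and normal control and -1.49 (-1.70 to -1.30) between cancer exercise and normal exercise. Rpl7 had 2229, 1918, 2789 and 2635.

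The remaining variants stayed within 2-fold or followed their partner. Rps27l, a paralog of Rps27 known as a p53 target, had 4320, 4329, 4172 and 3853, almost level across the libraries while Rps27 went from 996 to 2588. Rpl22l1, a paralog of Rpl22, had 5552, 5133, 9351 and 7047, and its ratio to Rpl22 lay between 0.262 and 0.313. Rpl36al, a paralog of Rpl36a, had 3285, 3326, 4662 and 5205, with 63.0 to 69.9% of the reads of both genes. Rps27rt had 3242, 4392, 7351 and 5491, from 72.5 to 76.5% of its reads and those of Rps27 together, and like Rpl37rt it may hold reads of its parent gene.

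Genes that work with the ribosome were described from lists by function, and their counts of called rows can be read against the 20.9% higher and 24.2% lower of all rows. Of 3 genes whose product carries a ribosomal protein fused to ubiquitin or a ubiquitin-like protein, 1 was called higher and 0 lower in cancer control than in normal control. The called gene was Fau, the source of Rps30, with counts of 2002, 2486, 4665 and 3280 and a difference of 1.22, within the range of the ribosomal protein rows. Rps27a, also a member, had 7776, 8248, 11592 and 10057 and a difference of 0.58. Of the 7 pseudogene rows of ribosomal proteins, 2 (Rplp2-ps1 and Rps19-ps3) were called higher and 0 lower, with a median of 0.72, and their reads may belong to the parent genes. Adding them to the members gave shares of 3.673, 4.484, 6.873 and 5.526% of the reads.

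Of 60 ribosome biogenesis factors, which build the ribosome, 21 were called higher and 1 lower in cancer control than in normal control. Counting every difference, 50 were higher and 10 lower, with a median of 0.81. Ncl, a major nucleolar protein, had counts of 4877 in normal control, 4727 with exercise alone, 14683 with the tumor alone and 9133 with both. Npm1, a nucleolar chaperone, had 1985, 1725, 5692 and 3264, and Gnl3, or nucleostemin, had 849, 783, 3645 and 2080. The row called lower was Riok2, a kinase of 40S maturation, with 238, 188, 107 and 174, which was named after its value was seen. Ncl, Npm1 and Gnl3 exceeded any common ribosomal protein, with differences of 1.59, 1.52 and 2.10. The median of the 60 was -0.02 between normal exercise and normal control, -0.21 between cancer exercise and cancer control and 0.57 between cancer exercise and normal exercise. Of the 16 genes of RNA polymerase I and rRNA transcription, 3 were called higher and 0 lower in cancer control, with a median of 0.46. Taf1d, a subunit of a polymerase I initiation factor, had 417, 406, 3029 and 839. The other two called were Taf1a, at 45, 77, 93 and 91, and Myc, at 1, 3, 37 and 44, the last a transcription factor that drives many ribosome genes.

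Of 34 translation initiation factors, 12 were called higher and 2 lower in cancer control than in normal control. Counting every difference, 29 were higher and 5 lower, with a median of 0.78. Eif1, which guards the choice of the start codon, had 8112, 12668, 24288 and 15607, and Eif3a, the largest subunit of eIF3, had 3683, 2703, 10375 and 5411. Eif4g2, which takes part in cap-independent initiation, had 7984, 11166, 7485 and 7542 and a difference of -0.09. The 2 called lower were Eif4e, the cap-binding protein, at 1860, 1350, 707 and 1239, and the barely expressed Eif3j1. Of 10 elongation factors, 0 were called higher and 1 lower, with a median of 0.35. The row called lower was Eef2k, the kinase that blocks Eef2, at 480, 488, 182 and 414. Eef2, the translocase, had 12863, 8282, 24271 and 19796. The muscle form Eef1a2 had 6993, 5820, 12059 and 11803, and the common form Eef1a1 had 7086, 6422, 9026 and 9377. The ratio of Eef1a2 to Eef1a1 was 0.987, 0.906, 1.34 and 1.26, so this muscle paralog was higher against its partner with a tumor, the opposite of Rpl3l against Rpl3.

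Of 19 further genes whose mRNAs are known to carry a TOP tract, 6 were called higher and 0 lower in cancer control than in normal control, and all 19 were higher, with a median of 0.89. Tpt1, one of the best known, stood out at 34563, 30658, 37954 and 48308, a difference of 0.14, and was highest in cancer exercise. Gnb2l1, which encodes the 40S-bound scaffold Rack1, had 6409, 6979, 12502 and 9843. Of 10 regulators on the mTORC1 side, 4 (Eif4ebp1, Larp1, Larp4 and Mtor) were called higher and 1 lower, Eef2k again, with a median of 0.51. Eif4ebp1, the repressor of cap-dependent initiation, had 1107, 1188, 13596 and 13891, and was high in both tumor libraries to nearly the same level. Larp1, which binds TOP tracts, had 1819, 1984, 4563 and 2997. Of 7 chaperones of ribosomal proteins, 2 (Nap1l1 and Grwd1) were called higher and 0 lower, with a median of 0.71.

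Mitochondrial ribosomal proteins are coded in the nucleus and belong to a separate ribosome. Of 77 rows, 2 (Mrps18b and Mrpl41) were called higher and 10 lower in cancer control than in normal control, both smaller shares than the 20.9 and 24.2% of all rows. Their median was -0.31, with 25 rows higher and 52 lower. Between cancer exercise and cancer control the median was 0.28, with 56 rows higher and 21 lower, and between cancer exercise and normal exercise it was 0.04. Mrpl42 had counts of 5445, 3805, 2168 and 4672, and Mrpl12, which also binds the mitochondrial RNA polymerase, had 3335, 3056, 1533 and 2675. The share of reads in the 77 rows was 0.642, 0.722, 0.545 and 0.668%, lowest in cancer control, where the cytosolic share was highest.

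**Figure D5:**
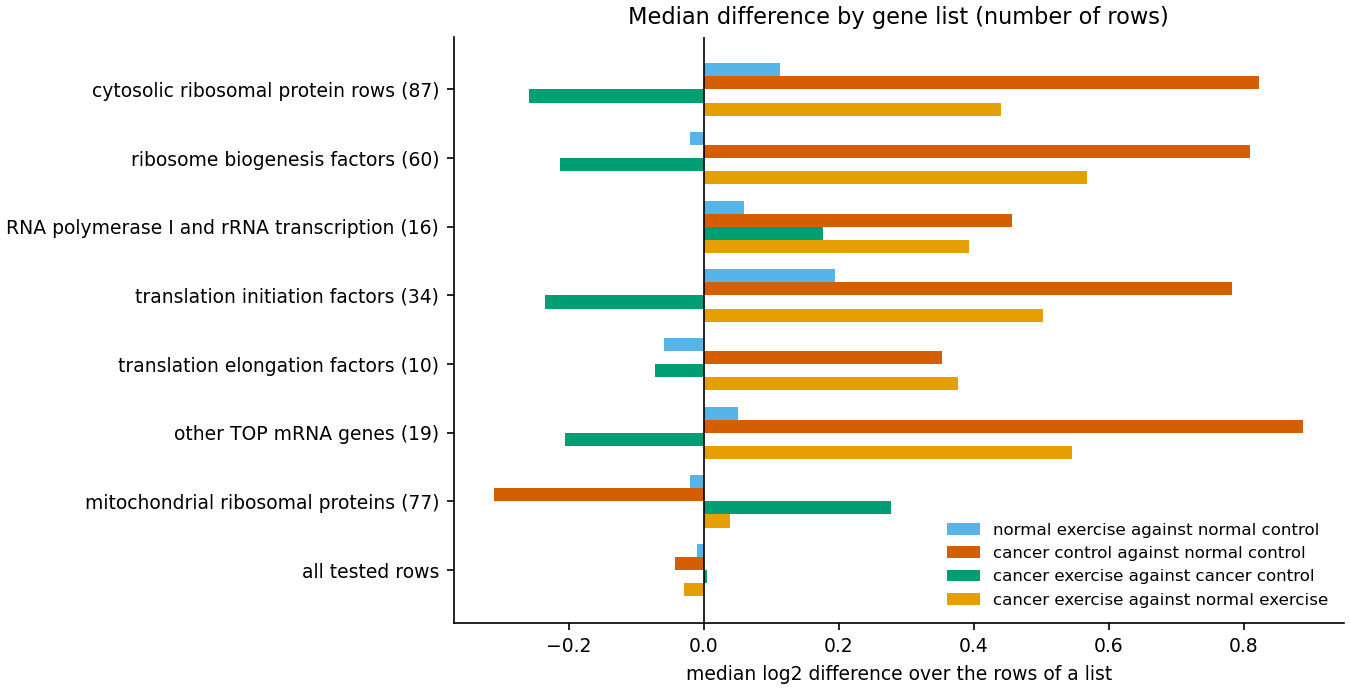
Median log2 difference over the rows of each list in the 4 comparisons, with the number of rows in brackets and the median of all compared rows at the bottom. The cytosolic ribosomal protein rows and the biogenesis factors have medians of 0.82 and 0.81 for cancer control against normal control, and the mitochondrial ribosomal proteins -0.31.

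Markers of the tissue and of other cells differed among the libraries as well. All 12 markers of skeletal muscle fibres were present in each library, and their summed normalized count was 2060999 in normal control, 1686501 with exercise alone, 1128867 with the tumor alone and 1286885 with both. Between cancer control and normal control 4 of the 12 were higher and 8 lower. In bulk tissue, fewer cells of a type and less RNA per cell cannot be told apart. The 8 neutrophil markers summed to 75, 177, 4103 and 2636, all 8 being higher in cancer control than in normal control, and neither library without a tumor had a read of Ngp or Ltf. Cancer exercise also had no read of Ngp. The 6 markers of proliferating cells summed to 205, 178, 708 and 362, also with all 6 higher. Between cancer exercise and cancer control 3 of the neutrophil markers were higher and 5 lower, and all 6 proliferation markers were lower.

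The 8 macrophage markers summed to 3918, 3771, 6433 and 6193, with 4 higher and 4 lower between cancer control and normal control, and the 6 lymphocyte markers to at most 21. Fibroblast markers summed to 95113, 44931, 37022 and 37796, and adipocyte markers to 36801, 20583, 12375 and 25991, both highest in normal control. The 7 keratinocyte markers summed to 200, 196, 775 and 87, and Krt5, Krt1 and Flg2 had reads in cancer control alone. The 7 red cell markers summed to 249011, 51513, 235237 and 504624, the 6 endothelial markers to 3062, 4102, 3436 and 3528 (2 higher and 4 lower between cancer control and normal control), and the 6 markers of satellite cells and regenerating fibres to 1521, 1089, 1186 and 1376. The part of any of these cells in the ribosomal protein differences was not tested.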

How the data were processed

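Gastrocnemius RNA of 4 groups was sequenced with the QuantSeq 3′ kit, 1 library per group, and the titles gave the groups. The authors used Bowtie2 for alignment, Bedtools for counting and edgeR for quantile normalization. They deposited the log2 of each normalized read count plus 1. The submitters' processing notes name mm10. The annotation, the strand setting and the handling of reads matching several genes are not given in the sources used here.

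Differences are those of the deposited log2 values (pseudocount 1), which understates changes of low genes. Whole reads were rebuilt from the steps of the values by fitting 1 scaling factor per library and 1 dispersion (0.3394). They matched 100.0% of values within 0.0006, and 92.2 to 94.2% of values could be tied to 1 read count. These percentages cover all 23282 rows, 6694 of them without reads. At high counts, where many members lie, neighbouring read counts give nearly the same value, so the match is no check there. The procedure was tested on simulated data, where exact recovery of reads was checked at low counts only. Libraries held 10647726 to 13225893 reads, so 3 reads were at most 2.82e-05%. A row was called at 2-fold (or 1.5-fold) with a count of at least 4 in 1 of the libraries. Counting intervals are 95% Clopper-Pearson intervals of the reads. Sequences and positions are from RefSeq GRCm38.p6. Python 3.11.15, NumPy 2.4.6, pandas 2.3.3 and SciPy 1.17.1 were used.

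The members and lists were chosen with earlier results of these data known. Genes were named by rule, namely Rpl3 and Rpl3l, the variants, the stalk and Rpsa, the 10 most abundant members, members called at 2-fold with a count of at least 16 (up to 6 per direction), and up to 5 abundant members of each list. Others were chosen after their values were seen. Alternatives were other scalings, pseudocounts, minimums, thresholds and sets of rows. Some genes that these rules would name are not reported here by name or drawn by member, and they remain in the counts and medians.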

Additional observations from a re-analysis of the deposited data

Results flagged for a closer look

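In 2 member rows the difference with exercise had one sign without a tumor and the other sign with one, and these differences lay at least 1 apart on the log2 scale. With 1 library per group the contrast was not tested. Rps27 differed by 0.74 between normal exercise and normal control and by -0.48 between cancer exercise and cancer control, which is -1.22 with a tumor minus without. Its retrogene copy Rps27rt, which may hold reads of Rps27, differed by 0.44 and -0.42. The value of Rps27 thus rests on an uncertain split of reads. Rps4l differed by -0.51 and by 2.57, which is 3.08, and had between 15 and 93 reads per library.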

How the results depend on the processing

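Of 104 values recomputed under another setting, 76 moved by less than a counting interval or, for counts, by less than 1.5 times. The other 28 moved further, and 0 values changed sign. For the medians and subunit differences, the interval was that of the summed reads of all members. It reached 0.0051 to 0.0059 to either side and is not an interval of the median. The 76 include values with little or no room to move, so this tally overstates stability. Library scaling hardly alters the difference between the small-subunit and large-subunit medians. The shares from summed normalized read counts and the Rpl3l to Rpl3 ratios from rebuilt reads restate the main quantity. The TMM factors differed from the fitted factors by only 0.21 to 0.31%. Counts of called members moved most with the threshold. At 1.5-fold they were 3 for normal exercise against normal control, 69 for cancer control against normal control, 5 for cancer exercise against cancer control and 23 for cancer exercise against normal exercise. Of all rows, 37.9, 64.3, 49.5 and 49.1% were called at 1.5-fold in these comparisons. At 4-fold the counts were 2 for cancer control against normal control, beside 21.4% of all rows, and 1 for cancer exercise against normal exercise, beside 13.5%. Without the variants, 0 members were called for normal exercise against normal control, beside 21.5% of all rows. The count was also 0 for cancer exercise against cancer control, beside 30.6%, and for cancer exercise against normal exercise, beside 30.3%. A minimum of 16 also gave 0 for normal exercise against normal control, beside 14.0% of all rows. Total count scaling moved the median of all rows by over 0.1 in both comparisons with normal exercise, and gave member medians of 0.27 for normal exercise against normal control, 0.89 for cancer control against normal control, -0.33 for cancer exercise against cancer control and 0.28 for cancer exercise against normal exercise. With it, 81 members were higher and 6 lower for normal exercise against normal control, in place of 62 and 25, and 78 and 9 for cancer exercise against normal exercise, in place of 81 and 6. Among 11 members followed singly, which are not in these counts, it turned the sign for Rpl3 (0.10) and Rpl22l1 (0.05) with exercise and for Rps27l (0.02) with a tumor. TMM scaling gave 0.12 and -0.25 for exercise without and with a tumor. Median-of-ratios scaling gave 0.86 for cancer control against normal control and -0.29 for cancer exercise against cancer control, and leaving out the variants 0.85 and -0.27. The shares of reads without the 10 most abundant rows were 4.517, 5.262, 7.461 and 6.206%, and with pseudogene rows 3.673, 4.484, 6.873 and 5.526%, in the order of the report. The cause of these moves was not tested beyond what each setting changes. No paired analysis was possible because each group had 1 library and the labels carry no replicate numbers. Depth limits Rpl39l and Rps4l, whose counting intervals are the widest of the members.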
